A study of Homo sapiens with 12 samples.

Results

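SK-OV-3, an established human ovarian cancer line, was measured here for 39 genes of protein folding, taken as a list by name: 19 cytosolic and mitochondrial heat shock genes and 20 chaperones and unfolded protein response genes of the endoplasmic reticulum (ER). The list was chosen with earlier results of these data known. Its members stand among 19775 genes that the arrays name. Cultures received PBS as the control, recombinant BMP2 (100 ng/ml), DM (5 µM), or both reagents for 24 h, with 3 arrays in each of the 4 groups. BMP2 belongs to the TGF-beta family of secreted signals, and DM is named in the labels by these letters alone. The labels call the arrays of a group biological replicates, all of 1 line, so p-values measure the spread between cultures of that line. Each gene was read from its brightest probe set with a single gene symbol, on the linear MAS5 signal scale. That gave values for 36 members, 17 of the 19 heat shock genes and 19 of the 20 ER genes, and all 36 passed the filter on dim probe sets (a signal of 69.8). HSPA8 and SYVN1 are listed only on probe sets that name several genes (4 and 1 of them), and AHSA1 was not analysed here.

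Cells hold separate sets of chaperones for separate compartments. In the cytosol and nucleus, the transcription factor HSF1 binds heat shock elements, which are alternating GAA and TTC units, and raises HSP90, HSP70, their J-domain and nucleotide-exchange partners and small heat shock proteins when unfolded protein accumulates; HSPD1, HSPE1 and HSPA9 do the folding in the mitochondrial matrix. In the ER, unfolded protein activates the sensors IRE1, ATF6 and PERK. Spliced XBP1 and cleaved ATF6 raise HSPA5 (BiP), HSP90B1, protein disulfide isomerases and the components of ER-associated degradation, through ER stress elements that also bind the CCAAT factor NF-Y, while PERK acts through translation and ATF4. Cancer cells with a high secretory or growth load carry much of both machineries without any added stress.

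Promoter letters differed between the heat shock and the ER genes. RefSeq windows (GRCh38.p14, 250 bases before to 50 after each annotated start) were held for 35 of the 39 members, 16 heat shock and 19 ER genes, in 50 windows. Both strands were searched. The ER stress element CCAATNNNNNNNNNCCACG was found in 7 ER genes (HSPA5, HSP90B1, PDIA6, CALR, CANX, XBP1 and CRELD2) and 0 heat shock genes, against 0.0916% of the 27305 genes with a window. The shorter variant, ATTGG and CCACG with 1 base between them, was found in HERPUD1, SDF2L1 and HYOU1, against 0.0696% of genes. The UPRE TGACGTGG was found in HYOU1 alone, where it overlaps the shorter variant, against 0.927%. The heat shock element of 3 units (GAANNTTCNNGAA or TTCNNGAANNTTC) was found in HSP90AA1, HSP90AB1, HSPA8, HSPD1, DNAJA1 and CHORDC1 and in 0 ER genes, against 0.608% of genes. With 2 units (GAANNTTC or TTCNNGAA) it was in 11 heat shock genes and in CANX, against 16.2%, and the CCAAT box, which is also part of the ER stress element, was in 18 ER and 5 heat shock genes, against 39.7%. A match describes these letters only; binding was not measured.

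The stretches around the matches are shown for members that the results below turn on. XBP1, the transcription factor of the pathway, and CHORDC1, which was called in no comparison, are shown too. All stretches run 5′ to 3′ on the gene's own strand, with the fixed letters of the element in capitals. For the ER genes they lie at chr9:125241379-125241421 (minus strand) for HSPA5, chr12:103930204-103930351 (plus strand) for HSP90B1 with 2 elements, chr2:10812841-10812883 (minus strand) for PDIA6, chr22:49918542-49918584 (plus strand) for CRELD2, chr22:28800591-28800633 (minus strand) for XBP1, and chr16:56932013-56932047 (plus strand) for HERPUD1, which has the shorter variant.
HSPA5: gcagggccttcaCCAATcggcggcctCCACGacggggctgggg
HSP90B1: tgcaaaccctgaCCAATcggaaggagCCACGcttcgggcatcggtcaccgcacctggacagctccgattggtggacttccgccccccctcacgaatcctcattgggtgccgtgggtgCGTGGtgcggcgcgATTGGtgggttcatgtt
PDIA6: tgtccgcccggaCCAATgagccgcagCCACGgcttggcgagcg
CRELD2: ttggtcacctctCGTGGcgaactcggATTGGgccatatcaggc
XBP1: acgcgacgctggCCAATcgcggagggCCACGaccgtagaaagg
HERPUD1: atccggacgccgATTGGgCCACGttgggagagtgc

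For the heat shock genes they lie at chr14:102087108-102087144 (minus strand) for HSP90AA1, chr2:197500056-197500090 (minus strand) for HSPD1 and chr11:90223075-90223121 (minus strand) for CHORDC1, where 3 overlapping matches make a run of 5 units. In HSPD1, 2 overlapping matches make a run of 4.
HSP90AA1: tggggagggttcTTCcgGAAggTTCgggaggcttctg
HSPD1: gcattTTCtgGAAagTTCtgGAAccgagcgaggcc
CHORDC1: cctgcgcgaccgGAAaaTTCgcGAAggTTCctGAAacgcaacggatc

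The arrays shared a common level as deposited, with 2% trimmed means from 495.8 to 496.1. Median signals ran from 86.7 to 112, and BMP2 replicate 1 had the highest. The 3 BMP2 arrays correlated less with one another (means of 0.934, 0.938 and 0.941, the lowest for replicate 1) than arrays within the other groups did (0.949 to 0.956). Of 9 epithelial and SK-OV-3 markers 7 lay above the filter, KRT7, KRT8, KRT18, KRT19, EPCAM, ERBB2 and PAX8; so did 4 of 6 mesothelial markers, 2 of 8 endothelial ones, 2 of 10 for fibroblasts and, of 9 for leukocytes, CD79A alone. None of these other markers was called by limma in any comparison. Of the epithelial markers, KRT7 rose by 0.94 ± 0.14 with DM and 0.83 ± 0.14 in BMP2+DM against PBS, and KRT19 and ERBB2 rose by 0.34 ± 0.087 and 0.37 ± 0.095 in BMP2+DM against BMP2. The summed signal of the 9 epithelial and SK-OV-3 markers was 46950 to 51390 with PBS, 43120 to 49060 with BMP2, 52220 to 56430 with DM and 53570 to 58140 with both, so all DM-treated arrays lay above all others. That of the 7 leukocyte markers with a probe set was 645 to 928 with PBS, 582 to 1044 with BMP2, 481 to 550 with DM and 654 to 856 with both, and the part of either list in the results was not tested. Values of change are log2 fold changes ± SE from 1 limma model of all 12 arrays. A gene is called where its p, adjusted by the Benjamini-Hochberg method over all 12674 genes tested, is under 0.05. Bulk arrays cannot tell less RNA per cell from fewer cells, and every comparison against one group shares that group's 3 arrays.

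Changes in both chaperone families were small, and the heat shock and ER genes parted when DM was added to BMP2. In BMP2+DM against BMP2, 4 of 17 measured heat shock genes fell and 0 rose, while 3 of 19 ER genes rose and 0 fell; over all genes tested 3.17% were called lower and 4.08% higher. The 4 that fell were HSP90AA1, HSPA4, HSPD1 and HSPB1, and the 3 that rose were the disulfide isomerases PDIA6 and P4HB and the ER factor CRELD2, the last by 1.45-fold, the largest of these changes. The median log2 fold change was -0.17 for the heat shock genes and 0.11 for the ER genes, against 0.031 for all genes. Of the 17 heat shock values 12 were negative and of the 19 ER values 15 were positive, where 53.9% of all genes were positive. The arrays of both groups did not overlap for 6 heat shock genes, all lower with both reagents, and for 1, HSPA9, that was higher, and for 5 ER genes, all higher, where 11.8% of all genes were so lower and 14.0% higher. Centring each array on its median left 2 calls, HSP90AA1 and P4HB, an untrended variance left HSPD1 and P4HB, and without BMP2 replicate 1, 4 remained: HSPA4, HSPD1, PDIA6 and P4HB. Without BMP2+DM replicate 1 there were also 4, HSPD1, PDIA6, P4HB and the ER gene HSP90B1, which was called lower. In the main fit HSP90B1 had -0.39 ± 0.12 in this comparison (adjusted p = 0.0591 by limma), not called. HSP90B1 was also called lower with the brightest 30% of probe sets and without BMP2 replicate 2. HSPA9 was called higher in these same settings, with quantile normalization and without PBS replicate 1.

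**Figure D1:**
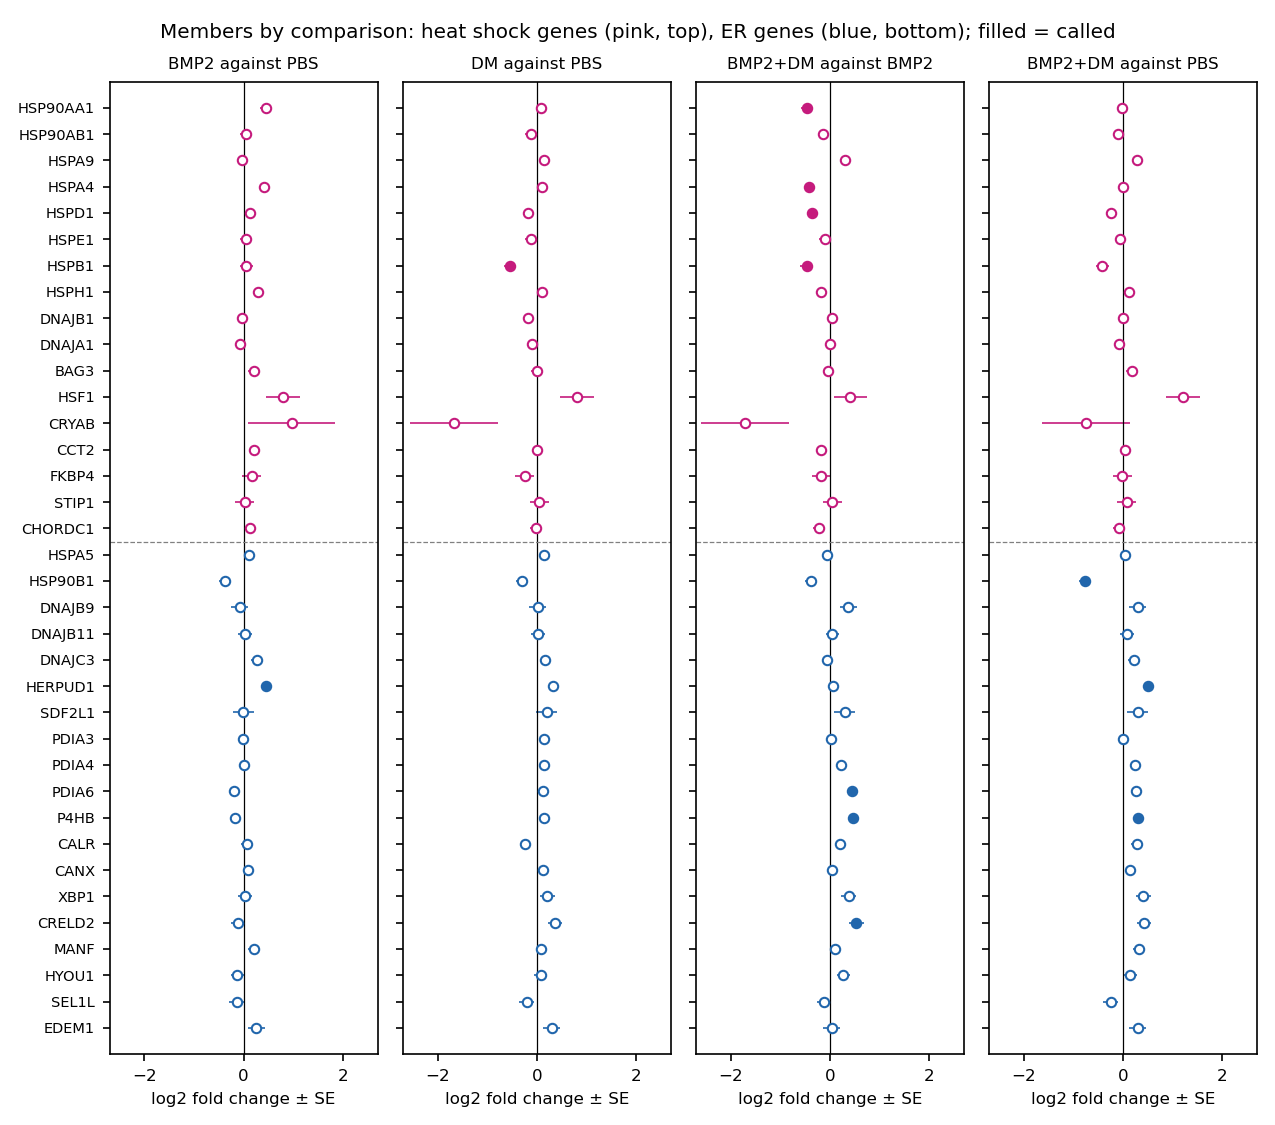
Log2 fold change (horizontal axis) ± SE of each of the 36 measured members in 4 comparisons, with heat shock genes in pink above the dashed line and ER genes in blue below it; filled points passed an adjusted p of 0.05. In BMP2+DM against BMP2 the 4 filled heat shock points lie left of 0 and the 3 filled ER points right of 0, and CRYAB has the widest error bars.

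With each reagent alone, 1 member was called. In BMP2 against PBS, the ER membrane protein HERPUD1 rose (0.323% of all genes were called higher and 0.308% lower). In DM against PBS, the small heat shock protein gene HSPB1 fell (1.71% of all genes lower, 1.86% higher). The heat shock genes had a median of 0.14 with BMP2 and -0.0080 with DM, and the ER genes 0.0080 and 0.14, where all genes had 0.025 and 0.019. With BMP2, 0 of the 17 heat shock genes were called. At an unadjusted p under 0.05 by limma 5 of the 17 were higher, where 732 of all 12674 genes were higher and 596 lower. All 3 BMP2 arrays lay above all PBS arrays for 6 of the 17 (HSP90AA1, HSPA4, HSPD1, HSPH1, BAG3 and CCT2), against 8.97% of all genes. This held for the brightest probe sets. Of the 11 other probe sets of these genes, 4 had all BMP2 arrays below all PBS arrays (1 each of HSP90AA1, HSPD1, HSPH1 and CCT2), 1 of HSPD1 had all above and 6 overlapped; BAG3 had no other. Median centring moved the heat shock median to 0.067 and the ER median to -0.064 in BMP2 against PBS, and to 0.050 and 0.20 in DM against PBS, so the sign of the ER median with BMP2 and of the heat shock median with DM depended on it. With averaged probe sets the heat shock medians were 0.055 with BMP2, where 6 of 17 values in place of 3 were negative, and -0.044 with DM, and the ER medians were -0.0080 and 0.069.

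With both reagents against PBS, 3 ER genes were called and 0 of 17 heat shock genes. At an unadjusted p under 0.05 by limma 2 of the 17 were higher and 2 lower, where 1448 and 919 of all 12674 genes were. These are the brightest probe sets: 5 other probe sets of heat shock genes were called, all lower, as given with the probe sets. HERPUD1 and P4HB rose and HSP90B1, the HSP90 of the ER, fell, where 2.41% of all genes were called higher and 1.69% lower. The ER median was 0.26, against -0.014 for heat shock genes and 0.055 for all genes. Of the 19 ER values 17 were positive, where 57.1% of all genes were. On the brightest probe sets 9 ER genes had all arrays above all PBS arrays, against 15.8% of all genes. HSP90B1 and SEL1L had all below, against 10% of all genes. Of the 13 other probe sets of the 9 higher genes, 3 had all arrays above, all of PDIA6, and 10 overlapped. Against DM alone, limma called 0 of the 36 members in the BMP2+DM arrays, with 1 higher and 1 lower at an unadjusted p under 0.05, where 0.0473% of all genes were called and 8.88% had such a p. For the interaction (how far the change with BMP2 differed between DM-treated and other arrays) limma called 0 members of 36, with 5 at an unadjusted p under 0.05, where 0.118% of all genes were called and 8.70% had such a p. Over the 6 comparisons, 9 of the 36 members were called at least once, as were 10.1% of all genes.

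On single arrays, both sets of genes were summarised as medians over their members, set against the mean of the PBS arrays. The heat shock median was 0.183, 0.140 and 0.130 on the BMP2 arrays, 0.016, 0.055 and -0.127 on the DM arrays and -0.098, 0.060 and 0.027 with both. The ER median was 0.024, 0.036 and 0.0080 with BMP2, 0.144, 0.173 and 0.067 with DM and 0.199, 0.275 and 0.267 with both. On these brightest probe sets the 3 BMP2 arrays were the highest for the heat shock genes, and the 3 arrays with both reagents were the highest for the ER genes. ER minus heat shock was -0.13 ± 0.028 (SD, n = 3) with BMP2, 0.15 ± 0.041 with DM and 0.25 ± 0.042 with both, against -0.010 ± 0.045 with PBS, and no test was made of these medians, because members are not replicates. With averaged probe sets, ER minus heat shock in BMP2 against PBS was -0.063, where the brightest probe sets gave -0.13.

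**Figure D2:**
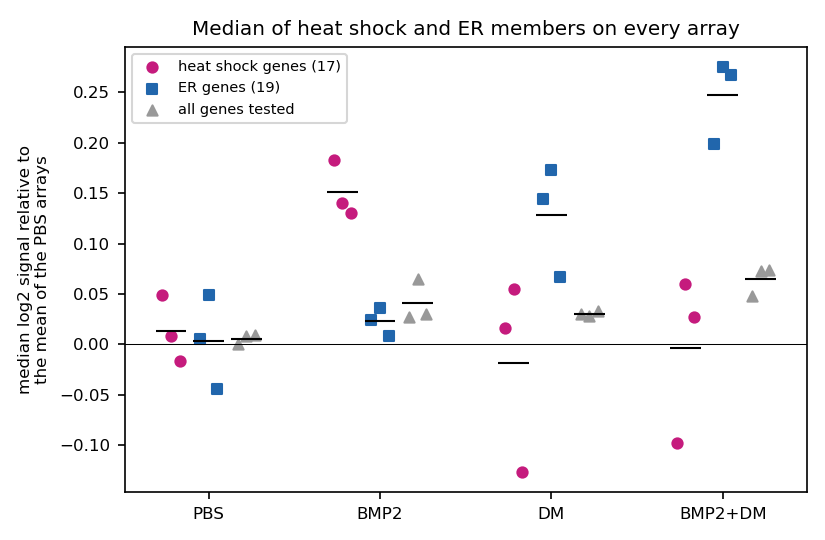
Median log2 signal, on the brightest probe sets, of the 17 heat shock genes (pink circles), 19 ER genes (blue squares) and all 12674 genes (grey triangles) on each array, relative to the mean of the PBS arrays; black lines are group means of 3 arrays. The heat shock median is highest on the BMP2 arrays (0.130 to 0.183) and the ER median on the arrays with both reagents (0.199 to 0.275).

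Among the HSP90 and HSP70 machines of the cytosol, HSP90AA1, the stress-inducible HSP90, had signals of 81984, 99492 and 108365 with PBS, 147615, 130042 and 116409 with BMP2, 104138, 97595 and 103082 with DM and 89663, 96277 and 97815 with both. All BMP2 arrays lay above all others, and the other groups overlapped. HSP90AA1 changed by -0.47 ± 0.11 (adjusted p = 0.0109) in BMP2+DM against BMP2 and had 0.45 ± 0.11 (adjusted p = 0.0713) in BMP2 against PBS, which was not called. In BMP2 against PBS its other probe sets had 0.21 ± 0.085, 0.11 ± 0.081 and -0.15 ± 0.077, the last with all BMP2 arrays below all PBS arrays, and none was called. The HSP90AA1 interaction value was -0.55 ± 0.15, with an unadjusted p of 0.00182 and an adjusted p of 0.239 by limma. The call was lost in 3 of 22 alternatives (with an untrended variance, and on leaving out 1 array, which was BMP2 replicate 1, or BMP2+DM replicate 1), over which the adjusted p ran from 0.00368 to 0.0762. HSP90AB1, the constitutive HSP90, had values from -0.14 to 0.039 over the 5 comparisons of groups, none of them called.

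HSPA4, an HSP110-family exchange factor for HSP70, followed the same order, at 3427, 3658 and 3234 with PBS, 4559, 4738 and 4439.8 with BMP2, 3816, 3897 and 3340.3 with DM and 3079.6, 3582 and 3615 with both. On this probe set the 3 BMP2 arrays were again above every other array. The change was -0.42 ± 0.097 (adjusted p = 0.0122) in BMP2+DM against BMP2 and 0.41 ± 0.097 (adjusted p = 0.0678) in BMP2 against PBS, and these comparisons share the BMP2 arrays. The call was lost in 4 of 22 alternatives (with median centring, averaged probe sets and an untrended variance, and on leaving out 1 array, which was BMP2+DM replicate 1), over which the adjusted p ran from 0.00837 to 0.299. In BMP2 against PBS the other HSPA4 probe sets had 0.125 ± 0.108, 0.044 ± 0.191 and -0.149 ± 0.167, all with overlapping arrays and none called. The first of them was nearly as bright as the one read (geometric means of 3710.1 and 3748.7). HSPH1, another HSP110, had 11421, 12211 and 9920.5 with BMP2 against 9629.5, 9057 and 8546 with PBS, arrays that did not overlap, with 0.30 ± 0.11 (adjusted p = 0.298). Its second probe set went the other way, also without overlap, at 3022, 3083 and 3373 with BMP2 and 5414, 4177 and 3909 with PBS (-0.50 ± 0.17), not called either.

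In the mitochondrial matrix, HSPD1 (HSP60) and its lid HSPE1 (HSP10) work as 1 chamber, and their genes lie head to head on chromosome 2. A RefSeq window of each, chr2:197500225-197500524 on the minus strand and chr2:197500129-197500428 on the plus strand, share 204 bases. HSPD1 had signals of 48929, 44451 and 48615 with PBS, 49718, 54837 and 49778 with BMP2, 43143, 41345 and 41064 with DM and 40383, 38957 and 40305 with both. All 6 DM-treated arrays were below all 6 arrays without DM. HSPD1 fell in BMP2+DM against BMP2, by 0.37 ± 0.076 on the log2 scale (adjusted p = 0.00671), and had -0.18 ± 0.076 (adjusted p = 0.255) in DM against PBS. In BMP2 against PBS the brightest probe set had 0.12 ± 0.076 (adjusted p = 0.621) and the next brightest -0.29 ± 0.09, each without overlap of the arrays and neither called. The call was lost in 3 of 22 alternatives (with quantile normalization, median centring and averaged probe sets), over which the adjusted p ran from 0.00339 to 0.214. HSPE1 had -0.10 ± 0.11 (adjusted p = 0.649) and -0.12 ± 0.11 (adjusted p = 0.658) in the same comparisons, with overlapping arrays at 18309.7, 13649.9 and 15661 with PBS, 16616, 15196 and 16909.7 with BMP2, 16524, 13901 and 13176 with DM and 16641, 13822 and 15013 with both. HSPA9, the mitochondrial HSP70, had 0.30 ± 0.093 (adjusted p = 0.0595) in BMP2+DM against BMP2, higher on all 3 arrays and not called. Its 2 other probe sets above the filter had 0.037 ± 0.089 and 0.145 ± 0.136 there, with overlapping arrays and neither called.

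Among holdases and cofactors, HSPB1 (HSP27), a small heat shock protein that holds unfolded clients, had 4818, 6383 and 5446 with PBS, 6165, 4789.6 and 6361 with BMP2, 4163, 3832 and 3439 with DM and 3867, 4689 and 3894 with both. Every DM-treated array lay below every array without DM. HSPB1 fell by 0.54 ± 0.13 on the log2 scale with DM (adjusted p = 0.0242) and by 0.47 ± 0.13 when DM was added to BMP2 (adjusted p = 0.0313). The first call was lost in 6 of 22 alternatives (with median centring and an untrended variance, and on leaving out 1 array, which was PBS replicates 2 or 3, or DM replicates 2 or 3), over which the adjusted p ran from 0.012 to 0.136. The second was lost in 6 of 22 alternatives (with median centring and an untrended variance, and on leaving out 1 array, which was BMP2 replicates 1 or 3, or BMP2+DM replicates 1 or 3), over which the adjusted p ran from 0.00844 to 0.131. The other small heat shock protein among the members, CRYAB, was dim and uneven, at 268, 410.0 and 62.2 with PBS, 295, 360.0 and 482 with BMP2, 57.3, 238 and 15.5 with DM and 124, 312 and 37.4 with both. It had -1.67 ± 0.89 (adjusted p = 0.379) with DM and the largest SE of the 36 members.

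The J-domain proteins DNAJB1 and DNAJA1, which bring clients to HSP70, had values from -0.18 to 0.18 over the 5 comparisons of groups, and BAG3, an exchange factor that links HSP70 to autophagy, -0.03 to 0.20. CCT2, a subunit of the TRiC chaperonin that folds actin and tubulin, had 19256, 20864 and 18823 with BMP2, above 17262, 17555 and 16447 with PBS, with 0.20 ± 0.074 (adjusted p = 0.318). On its other probe set the BMP2 arrays, at 8252, 5932 and 8276, all lay below the PBS arrays, at 9308, 9763 and 9028 (-0.34 ± 0.14, not called). The HSP90 cochaperones FKBP4, STIP1 and CHORDC1 lay between -0.24 and 0.23. None of these 7 genes was called in any comparison by limma. FKBP4, the immunophilin partner of HSP90, had 722, 943 and 984 with PBS, 1257, 870.4 and 864 with BMP2, 704, 912 and 631 with DM and 860.5, 956 and 792 with both, with overlapping groups and -0.24 ± 0.19 (adjusted p = 0.591) with DM. HSF1, the transcription factor of the heat shock response, had 695, 182 and 427 with PBS, 508, 734 and 756 with BMP2, 584, 592 and 851 with DM and 863, 754 and 1023 with both. All arrays with both reagents lay above the PBS arrays, and HSF1 had 1.21 ± 0.34 (adjusted p = 0.0534) in BMP2+DM against PBS, called in 4 of 22 alternatives only (log2 of the signal plus 32, the brightest 30% of probe sets, a replicate block, and without PBS replicate 1), while its second probe set had -0.17 ± 0.41 there (adjusted p = 0.881 in a fit of every probe set).

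In the ER, the disulfide isomerases, which form and exchange disulfide bonds, gave 2 of the 3 calls when DM was added to BMP2. P4HB (PDI) had 16458, 18861 and 18133 with PBS, 15068, 16663 and 15964 with BMP2, 20212, 18692 and 20525 with DM and 21239.6, 22243 and 21951 with both. BMP2 replicates 1 and 3 were the lowest, and the 3 arrays with both reagents were above every other. P4HB rose by 0.46 ± 0.079 (adjusted p = 0.00157) in BMP2+DM against BMP2, a call kept in all 22 alternatives tried, and by 0.29 ± 0.079 (adjusted p = 0.0441) against PBS. That second call was lost in 14 of 22 alternatives (with median centring, no filter, averaged probe sets, an untrended variance and a replicate block, and on leaving out 1 array, which was PBS replicates 1, 2 or 3, or BMP2 replicate 3, or DM replicates 1 or 2, or BMP2+DM replicates 1, 2 or 3), over which the adjusted p ran from 0.0105 to 0.292. The 2 other P4HB probe sets had 0.09 ± 0.154 and 0.128 ± 0.095 in BMP2+DM against PBS, with overlapping arrays and neither called.

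PDIA6 is a second isomerase and, unlike P4HB, had a match to the ER stress element. PDIA6 had 9646, 9199 and 7802 with PBS, 7677, 8161 and 7421 with BMP2, 9343, 11378 and 8493 with DM and 10272, 10929.9 and 10599.8 with both. The arrays with both reagents were above all BMP2 arrays. PDIA6 rose by 0.45 ± 0.10 (adjusted p = 0.0127) in BMP2+DM against BMP2, where its 3 other probe sets had 0.40 ± 0.11, 0.56 ± 0.098 and 0.52 ± 0.094. The call was lost in 4 of 22 alternatives (with median centring and an untrended variance, and on leaving out 1 array, which was BMP2 replicate 3, or BMP2+DM replicate 2), over which the adjusted p ran from 0.00393 to 0.0852. PDIA4 had 0.23 ± 0.10 (adjusted p = 0.205) in that comparison, higher on all 3 arrays, and PDIA3, which serves glycoproteins bound to calnexin and calreticulin, 0.013 ± 0.074 (adjusted p = 0.95).

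The HSP90 and HSP70 of the ER gave other values than the isomerases. HSP90B1 (GRP94), which folds integrins and Toll-like receptors, had 17737, 15740.4 and 14699 with PBS, 12918, 10229 and 14372 with BMP2, 12951, 12599 and 13292 with DM and 10719, 9760.1 and 8090.1 with both. All other arrays lay below the 3 PBS arrays, and the arrays with both reagents lay below those with DM and overlapped those with BMP2. HSP90B1 fell by 0.76 ± 0.12 on the log2 scale in BMP2+DM against PBS (adjusted p = 0.0012), a call kept in all 22 alternatives tried, and had -0.37 ± 0.12 (adjusted p = 0.235) with BMP2 and -0.31 ± 0.12 (adjusted p = 0.198) with DM. Both of its probe sets carry the suffix _x_at, which marks probes that can match other transcripts, as do the probe sets read for HSPA4, PDIA6 and CALR, and its second, dimmer one had -1.21 ± 0.26 in the same comparison. HSPA5 (BiP), the ER HSP70 that also holds the stress sensors inactive, had 21959, 24439 and 25215 with PBS, 26449, 24637 and 25739 with BMP2, 28829, 27643 and 23277 with DM and 23633, 24759 and 25482 with both on its brightest probe set. These groups overlapped, and HSPA5 had 0.15 ± 0.089 (adjusted p = 0.442) with DM and -0.057 ± 0.089 (adjusted p = 0.772) in BMP2+DM against BMP2.

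HSPA5 gave another answer on its second probe set, which the rule did not choose and which is singled out after its values were seen. There the signals were 634, 624 and 606 with PBS, 796, 873 and 728 with BMP2, 1114, 1228 and 1228 with DM and 1239, 1289.7 and 1329.8 with both. All 6 DM-treated arrays were above all 6 arrays without DM. In a fit of every probe set above the filter (23284 of them), HSPA5 on this probe set had 0.94 ± 0.13 with DM (adjusted p = 0.00064 by limma), 0.69 ± 0.13 in BMP2+DM against BMP2 (adjusted p = 0.00517) and 1.05 ± 0.13 in BMP2+DM against PBS (adjusted p = 0.000299). In that fit 2.24%, 4.80% and 3.76% of all probe sets were called in these comparisons. Which of the probe sets stands for the HSPA5 transcript as a whole was not tested. Averaging the probe sets of each gene called HSPA5 in the same 3 comparisons.

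HERPUD1, an ER membrane protein of the degradation complex, had 2757, 2972 and 2872 with PBS, 4086, 3872 and 3761 with BMP2, 3558, 3260.2 and 3957 with DM and 4102, 4184 and 3918 with both. All arrays with BMP2, DM or both were above the PBS arrays. HERPUD1 rose by 0.45 ± 0.093 (adjusted p = 0.0324) with BMP2 and by 0.51 ± 0.093 (adjusted p = 0.00429) with both reagents, and had 0.32 ± 0.093 (adjusted p = 0.0663) with DM, not called. The call with BMP2 was lost in 11 of 22 alternatives (with median centring, an untrended variance, a replicate block and only the groups compared in the fit, and on leaving out 1 array, which was PBS replicates 1, 2 or 3, or BMP2 replicates 1, 2 or 3, or BMP2+DM replicate 2), over which the adjusted p ran from 0.0178 to 0.329. The call with both reagents was kept in all 22. SEL1L, the scaffold of that complex, had -0.25 ± 0.14 (adjusted p = 0.375) in BMP2+DM against PBS. EDEM1, which takes misfolded glycoproteins to it, had 864, 722 and 998 with PBS, 1194, 1039.5 and 859 with BMP2, 839.8, 1103 and 1256 with DM and 1016, 1033 and 1097 with both. Its arrays with both reagents were above the PBS arrays, with 0.30 ± 0.17 (adjusted p = 0.382), and DM alone gave 0.30 ± 0.17 (adjusted p = 0.432).

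CRELD2, a secreted ER stress factor, had 1096, 882 and 916 with PBS, 813, 871 and 988 with BMP2, 1147, 1478 and 1128 with DM and 1179.8, 1451 and 1240.5 with both. The DM-treated arrays were above all arrays without DM. It rose by 0.53 ± 0.15 (adjusted p = 0.0374) in BMP2+DM against BMP2 and had 0.37 ± 0.15 (adjusted p = 0.217) with DM. That call was lost in 9 of 22 alternatives (with median centring, an untrended variance, a replicate block and only the groups compared in the fit, and on leaving out 1 array, which was BMP2 replicates 1 or 2, or BMP2+DM replicates 1, 2 or 3), over which the adjusted p ran from 0.0277 to 0.159. MANF, a second factor of this kind, had 0.31 ± 0.11 (adjusted p = 0.113) in BMP2+DM against PBS, with all arrays higher.

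XBP1, the transcription factor spliced by IRE1, had 1700.4, 1344 and 1735 with PBS, 1697, 1598 and 1549 with BMP2, 2135, 1785 and 1616 with DM and 2292, 1673 and 2421 with both. The groups overlapped, and XBP1 had 0.38 ± 0.15 (adjusted p = 0.139) in BMP2+DM against BMP2 and 0.41 ± 0.15 (adjusted p = 0.138) against PBS; its splicing was not measured. The lectin chaperones CALR and CANX hold glycoproteins in their folding cycle. CALR had 4152, 3474 and 4975 with DM and 5483, 6145 and 6113 with both, which did not overlap, and 0.51 ± 0.11 (adjusted p = 0.142) in BMP2+DM against DM, the smallest p of the members in that comparison. CANX lay between 0.015 and 0.14 over the 5 comparisons of groups. The BiP partners DNAJB9, DNAJB11, DNAJC3, SDF2L1 and HYOU1 had 0.016 to 0.20 with DM and -0.05 to 0.37 in BMP2+DM against BMP2, none called by limma. DNAJB9, an early target of XBP1, was the highest of these in the second comparison, at 0.37 ± 0.17 (adjusted p = 0.217).

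**Figure D3:**
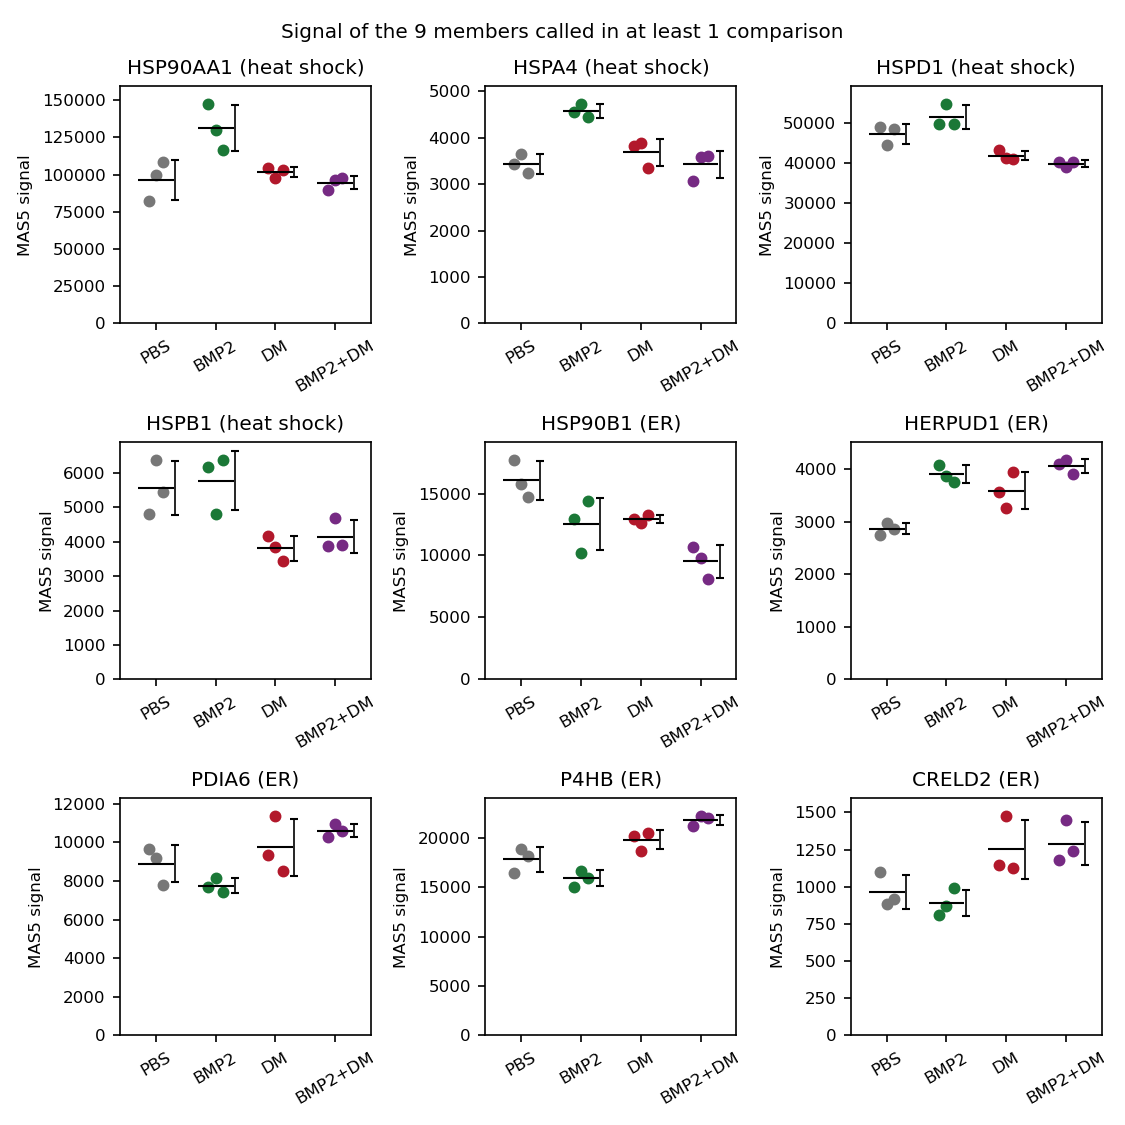
MAS5 signal (vertical axis, from 0) on every array for the 9 members called in at least 1 comparison; points are arrays, lines are means and bars are SD of 3 arrays. BMP2 arrays are highest for HSP90AA1 and HSPA4, DM-treated arrays lowest for HSPD1 and HSPB1, and arrays with both reagents highest for P4HB; the PBS arrays are highest for HSP90B1 and lowest for HERPUD1.

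Of the 36 members, 13 had 1 probe set above the filter and 23 had several, which gave 43 further probe sets. With DM added to BMP2, 37 of the 43 had the sign of the brightest one, but in BMP2 against PBS 21 of 43 and in DM against PBS 25 of 43 did. The falls of HSP90AA1 were seen on its other probe sets at -0.40 ± 0.085, -0.46 ± 0.081 and -0.16 ± 0.077 in BMP2+DM against BMP2, of which the first 2 were called (adjusted p = 0.0125 and 0.0032 by limma). For HSPA4 they were 0.27 ± 0.19, -0.35 ± 0.11 and -0.27 ± 0.17, none called. The 2 other probe sets of HSPD1 had -0.19 ± 0.09 and -0.24 ± 0.28, neither called. With both reagents against PBS, 9 of the 43 were called, against 3.76% of all probe sets. Of these, 5 were of heat shock genes, all lower (2 of HSP90AA1 and 1 each of HSP90AB1, HSPD1 and HSPH1), where 0 of the 17 brightest ones were called, and 4 were of ER genes (HSPA5 and 2 of PDIA6 higher, HSP90B1 lower). Among them HSP90AB1 had -0.87 ± 0.16 and HSPH1 -0.88 ± 0.17, where their brightest probe sets had -0.098 ± 0.11 and 0.12 ± 0.11.

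**Figure D4:**
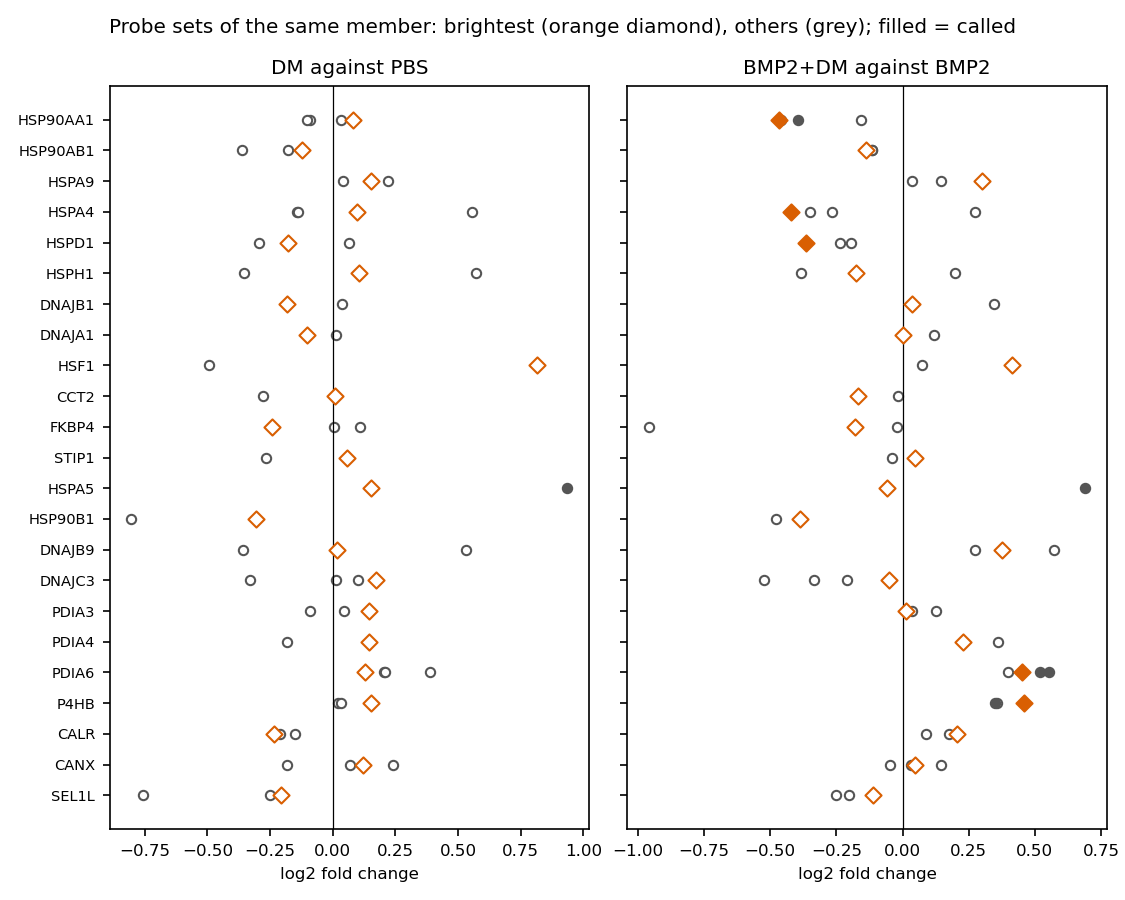
Log2 fold change of every probe set above the filter for the 23 members with several, in DM against PBS and in BMP2+DM against BMP2; orange diamonds are the brightest probe sets, grey circles the others, and filled marks passed an adjusted p of 0.05 in the fit of every probe set. The 4 probe sets of PDIA6 and the 3 of P4HB lie right of 0 in the second panel, and those of HSPA5 lie apart in both.

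Genes around the members were read from related lists, and their counts stand beside 1.86% of all genes called higher and 1.71% lower with DM, and 4.08% and 3.17% in BMP2+DM against BMP2. In DM against PBS, 3 of 18 unfolded protein response sensors and factors rose and 0 fell, with a median of 0.27: ATF4, the factor translated after PERK and related kinases act, by 1.31 ± 0.11, TRIB3, a pseudokinase that ATF4 induces, by 1.57 ± 0.16 and ATF6, the sensor cleaved in the Golgi, by 0.64 ± 0.13. When DM was added to BMP2, 4 rose and 0 fell, with a median of 0.25: ATF4 by 1.24 ± 0.11, TRIB3 by 1.96 ± 0.16, DDIT3 (CHOP) by 0.88 ± 0.21 and MBTPS1, the protease that first cuts ATF6, by 0.51 ± 0.13. Of 30 other heat shock genes 1 rose and 1 fell with DM, the HSP70 exchange factor BAG1 by 1.34 ± 0.085 and HSPA2, a testis-enriched HSP70, with -0.93 ± 0.15, counts close to the share of all genes. When DM was added to BMP2, BAG1 rose by 1.55 ± 0.085 and the J-domain gene DNAJB6 by 0.43 ± 0.11, and HSPA2 had -0.70 ± 0.15 and the HSP90 cochaperone SUGT1 -0.39 ± 0.10, both called lower. The median of these 30 genes was 0.001 with DM and 0.021 in BMP2+DM against BMP2, beside 0.019 and 0.031 for all genes. In the second comparison the heat shock members had -0.17. None of 6 further TRiC subunits was called by limma in any comparison. All 6 had positive values in BMP2 against PBS, as did 54.1% of all genes. Of the 6, 1 had an unadjusted p under 0.05 by limma, where 732 of the 12674 genes were higher at that p. The mitochondrial protease gene LONP1 rose with DM by 0.51 ± 0.12, as 1 of 12 genes of its list.

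The other ER lists had few calls, beside the same shares of all genes. At an unadjusted p under 0.05 by limma, 1118 of all 12674 genes were higher with DM and 934 lower. Of 34 other ER folding genes, 1 rose with DM, the prolyl isomerase FKBP9 by 0.46 ± 0.094, and 1 in BMP2+DM against BMP2, ERP29 by 0.51 ± 0.11. Of 24 ER translocation and glycosylation genes, limma called 0 with DM (6 at an unadjusted p under 0.05, all higher), while in BMP2+DM against BMP2 2 rose, the oligosaccharyltransferase subunit DDOST by 0.48 ± 0.10 and the KDEL receptor KDELR3 by 0.51 ± 0.11, and 1 fell, the translocon-associated SSR3, with -0.43 ± 0.094, which had risen by 0.50 ± 0.094 in BMP2 against PBS, a comparison that shares the BMP2 arrays. Of 27 further ER-associated degradation genes limma called 0 with DM (3 higher and 1 lower at an unadjusted p under 0.05) and 1 in BMP2+DM against BMP2, NPLOC4, a cofactor of the VCP segregase, by 0.56 ± 0.13. The medians of these 3 lists were 0.048, 0.069 and 0.12 with DM and 0.13, 0.054 and -0.026 in BMP2+DM against BMP2, beside 0.019 and 0.031 for all genes. With both reagents against PBS, ATF4, TRIB3, BAG1, LONP1, FKBP9, NPLOC4 and MBTPS1 also rose, as did CEBPB, a leucine zipper partner of DDIT3, by 0.38 ± 0.097. HSPA2 fell there too, and EDEM3, a mannosidase of the degradation pathway, was called lower, with -0.72 ± 0.17.

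**Figure D5:**
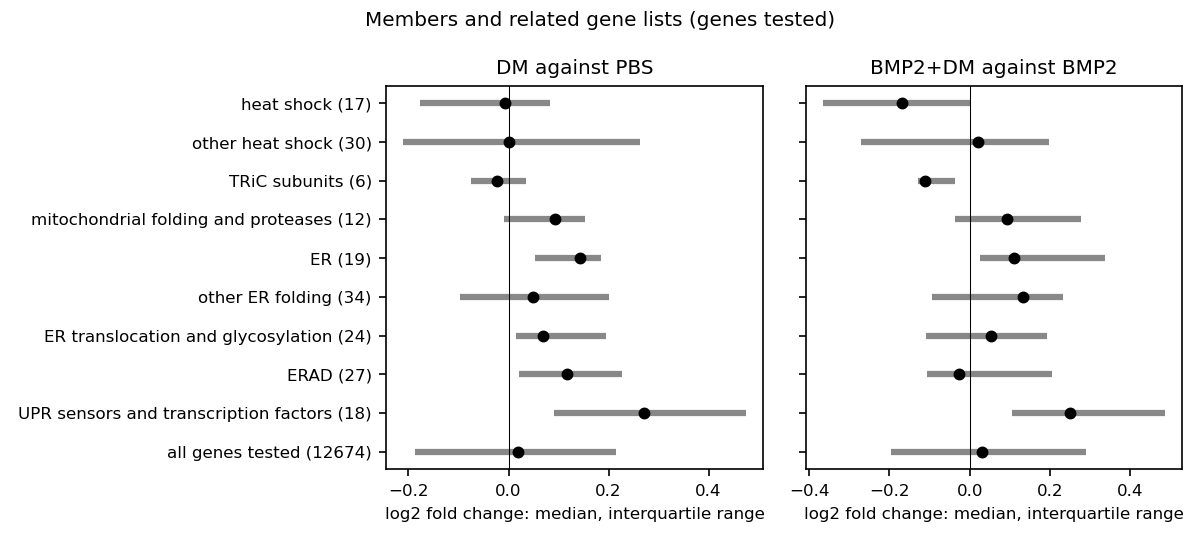
Median (point) and interquartile range (bar) of log2 fold changes for the heat shock and ER members and for related lists, with the number of genes tested, in DM against PBS and BMP2+DM against BMP2. The sensors and transcription factors have the highest median in both panels (0.271 and 0.250), and the heat shock members the lowest in the second (-0.170).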

How the data were processed

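Total RNA from 12 SK-OV-3 cultures was labelled as biotinylated cRNA and put on Affymetrix arrays, per the labels' protocols. The authors' values are MAS5 signals per the submitters' processing notes, deposited as 1 linear intensity per probe set and array. No detection calls were used here. Array number, 3 per group, limits the precision. Of 54613 probe sets, 41091 have 1 gene symbol in the platform table, 1801 several and 11721 none, and 0 symbols needed updating. Signals below 1 were set to 1 (396 values) before log2. Each gene was read from its brightest probe set among those above the median of all probe sets, which left 12674 genes. One limma model (3.58.1, R 4.3.3) with a mean per group and a trended variance (8 residual and 9.24 prior degrees of freedom) gave 6 two-sided comparisons; for 3 arrays against 3 a permutation test cannot give p below 0.1. The script was tested on simulated data. Motifs were searched in RefSeq windows.

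The members and lists were chosen with earlier results of these data known. Members were described array by array if called, if among the 4 heat shock or 4 ER genes with the largest change with DM, or if HSF1, XBP1, HSPA5 or HSPA8; related lists give up to 4 called genes with the smallest p. The 22 alternatives were the omission of each of the 12 arrays, centring on the median, quantile normalization, an offset of 32 before log2, filters that kept all or the brightest 30% of probe sets, averaged probe sets, an untrended or robust variance, a fit of only the groups compared, and a replicate block. The fit of every probe set was chosen after seeing the data. Same-numbered arrays of different groups did not deviate together (correlations of -0.026 to 0.059 over 18 pairs), so numbers were not taken as pairs.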

Additional observations from a re-analysis of the deposited data

How the results depend on the processing

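Counts of called members in comparisons with few calls changed most easily. In BMP2 against PBS the single call became 0 with median centring, no variance trend, a replicate block, only the groups compared, and every probe set, and 2 with the brightest 30% of probe sets and with a robust variance; leaving out 1 array gave 0 to 2. In DM against PBS it became 0 with median centring and with no variance trend, and 2 with the brightest 30% of probe sets and with averaged probe sets; leaving out 1 array gave 0 to 2. In BMP2+DM against BMP2 the 7 calls became 2 with median centring, 2 with no variance trend and 4 to 8 on leaving out 1 array. They became 9 with the brightest 30% of probe sets, where HSPA9 was also called higher and HSP90B1 lower. In BMP2+DM against PBS the 3 calls ran from 2 to 4 over all alternatives, in BMP2+DM against DM 0 became 1 at most (without DM replicate 3), and for the interaction the count was 0 in all. The replicate block changed no other of these counts by over 1.5 times.

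The ER minus heat shock difference of medians kept its sign in all alternatives except for BMP2+DM against DM, where it was 0.044 and ran from -0.023 to 0.083 on leaving out 1 array. In BMP2 against PBS it was -0.13, and -0.063 with averaged probe sets, and -0.168 to -0.116 on leaving out 1 array. In DM against PBS it was 0.15, and 0.244 with only the groups compared, with 0.144 to 0.244 on leaving out 1 array. For BMP2+DM against BMP2 it was 0.28, and 0.235 with quantile normalization, with 0.22 to 0.383 on leaving out 1 array. For BMP2+DM against PBS it was 0.27, with 0.182 to 0.285 on leaving out 1 array, and for the interaction 0.11, with 0.041 to 0.216. No single called member changed sign in any alternative. Where an array was left out, or only the groups compared were fitted, the brightest probe set and the filter were chosen anew. With a mean per group, a probe set's change between groups does not depend on arrays of other groups. The 0.244 in DM against PBS with only the groups compared therefore came with the new choice of probe sets or filter. HSPA4 has probe sets of nearly equal brightness (geometric means of 3748.7 and 3710.1), with 0.098 ± 0.099 and -0.143 ± 0.108 in DM against PBS. The part of single members in these shifts was not tested. Under median centring the median of all genes moved by less than 0.1 on the log2 scale.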

Other observations

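Promoter matches and calls were set side by side, where 10.1% of all genes tested were called in at least 1 comparison. Of the 10 measured ER genes with either form of the ER stress element, 4 were called in at least 1 comparison (HSP90B1, HERPUD1, PDIA6 and CRELD2), 3 of them higher and HSP90B1 lower, and of the 8 with a window and no match, 1 was (P4HB). Their median log2 fold changes were 0.24 and 0.079 in BMP2+DM against BMP2, and 0.27 and 0.27 in BMP2+DM against PBS. Of the 5 measured heat shock genes with a heat shock element of 3 units 2 were called (HSP90AA1 and HSPD1), and of the 9 without it 2 were (HSPA4 and HSPB1). Their medians were -0.22 and -0.10 in BMP2+DM against BMP2. These are descriptions of a few genes, and no test was made.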
